A study of Drosophila melanogaster with 2 samples.

Results

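The chemosensory receptor genes of *Drosophila melanogaster* are described here as sites, or as non-sites, of CG1603, a DNA-binding zinc-finger factor linked in flies to the control of mitochondrial activity from the nucleus. They were taken as the protein-coding genes whose symbol begins with Or, Gr or Ir followed by a digit. This rule gave 179 of the 13945 protein-coding genes on chromosomes 2, 3, 4 and X, with 59 odorant receptor (Or) genes, 60 gustatory receptor (Gr) genes and 60 ionotropic receptor (Ir) genes. The 7 receptor pseudogenes of the annotation were left out. Chromatin immunoprecipitation with sequencing had been run on whole embryos of mixed sex, 0 to 16 h old. All embryos came from 1 stable transgenic line in which GFP is fused to the C-terminus of CG1603, and GFP was taken to be the antibody's target. There is 1 group with 2 biological replicates, numbered 2 and 3, and no comparison between conditions.

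Or proteins are odorant-gated channels of olfactory neurons that work together with the co-receptor Orco. Gr proteins detect sugars, bitter compounds and carbon dioxide, and Ir proteins, relatives of ionotropic glutamate receptors, detect acids, amines, temperature and humidity together with broadly expressed co-receptors. Each receptor is typically transcribed in a small set of sensory neurons of the larva or adult, so in a whole embryo most cells are not known to use these genes. Because whole embryos were pooled, strong binding in few cells and weak binding in many cannot be told apart.

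Sequence upstream of 4 receptor genes, Gr63a, Gr97a, Ir67c and Gr61a, is shown first. These are not the 4 genes called bound below. Gr61a is not among the bound genes, and the bound gene Ir60e is not printed. The stretches are chr3L:3896604-3896902, chr3R:26966630-26966929, chr3L:10434106-10434405 (all minus strand) and chr3L:841361-841450 (plus strand), on dm6 as read from the RefSeq release 6 assembly. Each is written 5′ to 3′ on the strand of the receptor gene. The Gr63a, Gr97a and Gr61a stretches lie between the transcription start sites (TSSs) of the receptor gene and of a gene transcribed away from it, and that of Gr97a is the 300 bases next to CG5521. The Ir67c stretch lies directly upstream of a receptor gene with no such neighbour. Capitals mark matches, on either strand, to 6 motifs: the DNA replication-related element TATCGATA, the BEAF-32 core CGATA that it contains, the fly promoter element Motif 1 (GGTCACACT), the GAGA-factor core GAGAG, the TATA box TATAAA and the E-box CAGCTG. The Gr63a stretch runs 3 bases past the Lamtor4 TSS so that the motif across it is whole.
Gr63a-Lamtor4: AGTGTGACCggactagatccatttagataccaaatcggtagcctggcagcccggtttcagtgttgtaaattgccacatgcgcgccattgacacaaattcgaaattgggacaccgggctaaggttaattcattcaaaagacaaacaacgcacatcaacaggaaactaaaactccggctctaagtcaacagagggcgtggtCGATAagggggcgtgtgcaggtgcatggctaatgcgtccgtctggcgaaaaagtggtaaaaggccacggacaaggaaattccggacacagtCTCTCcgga
Gr97a-CG5521: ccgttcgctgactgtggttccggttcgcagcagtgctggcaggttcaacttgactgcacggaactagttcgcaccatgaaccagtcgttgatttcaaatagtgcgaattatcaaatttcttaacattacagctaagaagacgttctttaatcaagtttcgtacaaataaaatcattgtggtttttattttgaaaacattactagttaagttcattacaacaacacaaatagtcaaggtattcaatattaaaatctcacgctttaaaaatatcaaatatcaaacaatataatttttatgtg
Ir67c: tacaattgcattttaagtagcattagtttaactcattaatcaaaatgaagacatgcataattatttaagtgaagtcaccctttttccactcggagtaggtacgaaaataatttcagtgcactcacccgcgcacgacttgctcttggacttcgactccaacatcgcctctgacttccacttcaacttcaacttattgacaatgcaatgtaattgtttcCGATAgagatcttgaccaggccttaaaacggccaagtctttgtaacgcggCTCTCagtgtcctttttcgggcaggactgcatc
Gr61a-JMJD5: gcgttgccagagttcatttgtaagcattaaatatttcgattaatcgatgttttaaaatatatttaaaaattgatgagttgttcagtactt

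CG1603-GFP was found at 4 of the 179 receptor genes, the gustatory receptor genes Gr63a and Gr97a and the ionotropic receptor genes Ir60e and Ir67c. A gene was called bound if the summit of a peak in the authors' reproducible list of 8963 peaks was no more than 500 bp from a TSS of any of its protein-coding transcripts. The receptor genes were thus bound in 2.23% of cases, while 35.3% of all 13945 protein-coding genes were bound, and 35.7% of those that are not receptor genes. By family, 2 of 60 Gr genes, 2 of 60 Ir genes and 0 of 59 Or genes were bound. In the authors' pooled list of 30000 peaks, which reaches to much weaker peaks, 12 receptor genes (6.70%) had a summit in reach, against 47.1% of all genes. The full lists of 30000 peaks gave 13 receptor genes in replicate 2 and 13 in replicate 3 (7.26% each), against 46.8% and 50.5% of all genes. In those lists each family had 4 to 5 such genes. In both replicates at once 8 receptor genes (4.47%) had a summit in reach, against 43.3% of all genes. In the reproducible list no receptor gene was bound on X (0 of 25) or on 2L (0 of 31). Of the other genes on these arms 36.5% and 34.6% were bound. In the pooled list X again had 0, against 50.1% of its other genes, and 2L had 4 (12.9%), against 46.4%. With 2.23% of all receptor genes bound, counts this small do not tell the arms apart.

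**Figure D1:**
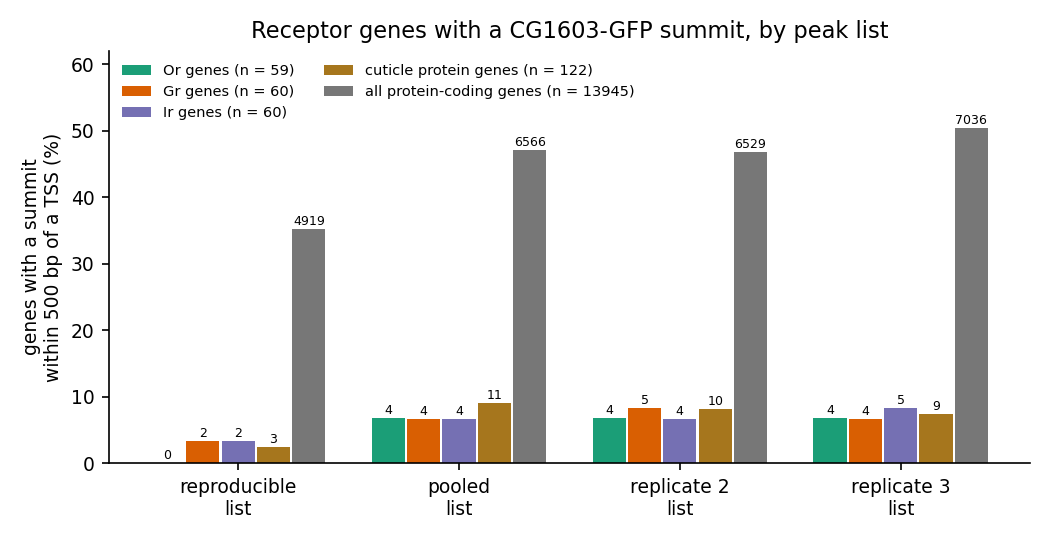
Share of genes (%, y axis) with a summit within 500 bp of a TSS in each deposited peak list (x axis), for the receptor families, cuticle protein genes and all protein-coding genes; the number above each bar is the count of genes. In every list shown each receptor family stands at 8.33% or lower and all genes at 35.3% or higher.

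Gr63a encodes a subunit of the carbon dioxide receptor of the antenna. Its summit lay 268 bp upstream of its TSS, in a peak at chromosome 3L, positions 3896791 to 3896949. The authors' signal was 187.2 in replicate 2, where the peak ranked 3836 of 30000, and 276.6 in replicate 3, where it ranked 2199. In the reproducible list the peak ranked 2788. That list was derived from both replicates' lists, so a peak in each replicate is part of how this gene was selected. The summit was also 29 bp from the TSS of Lamtor4, which encodes a subunit of the Ragulator complex that anchors growth signalling at lysosomes. Both genes are transcribed away from a shared interval, with TSSs 297 bp apart. In the sequence printed above, GGTCACACT spans the Lamtor4 TSS and lies 23 bp from the summit. Gr21a, the other subunit of the carbon dioxide receptor, was not bound, and its nearest reproducible summit was 29.2 kb away.

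Ir60e, an ionotropic receptor gene without a role named here, carried the strongest of the 4 promoter peaks, at chromosome 2R, positions 24531464 to 24531658. It ranked 1826 in the reproducible list, with a signal of 320.7 (rank 1900) in replicate 2 and 318.1 (rank 1757) in replicate 3. As at Gr63a, a peak in each replicate is part of the selection. The reproducible summit lay 275 bp upstream of the Ir60e TSS and 47 bp from a TSS of CG13585, which runs in the opposite direction from 322 bp away.

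At Gr97a, a gustatory receptor gene, the peak at chromosome 3R, positions 26966772 to 26967101, was near the end of the reproducible list at rank 8820 of 8963. Its signal was 65.1 in replicate 2 (rank 9952) and 81.5 in replicate 3 (rank 8413). The summit was 452 bp upstream of the Gr97a TSS and 7 bp from that of CG5521, whose mammalian orthologues encode catalytic subunits of the Ral GTPase-activating complex. This reproducible summit lay past the CG5521 TSS, in the CG5521 body and outside the printed stretch. The summits of replicates 2 and 3 lay at the end of the stretch, inside it. With the 8963 strongest peaks of replicate 2 alone, 3 receptor genes were bound, against 34.4% of all genes, and Gr97a was not among them. With those of replicate 3 alone there were 5, against 37.5%, the added one being Ir60b.

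Ir67c alone had the peak to itself. The peak at chromosome 3L, positions 10434189 to 10434518, had its summit 249 bp upstream of the Ir67c TSS, and no other protein-coding gene had a TSS within 2000 bp of it. Its signal was 125.5 in replicate 2 (rank 5770) and 106.3 in replicate 3 (rank 6672), and its rank in the reproducible list was 5896. Ir67c lies 401 bp from the next receptor gene, Ir67b, which was not bound (2371 bp from the same summit). The printed Ir67c sequence held CGATA 166 bp from the summit, and neither TATCGATA nor GGTCACACT.

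**Figure D2:**
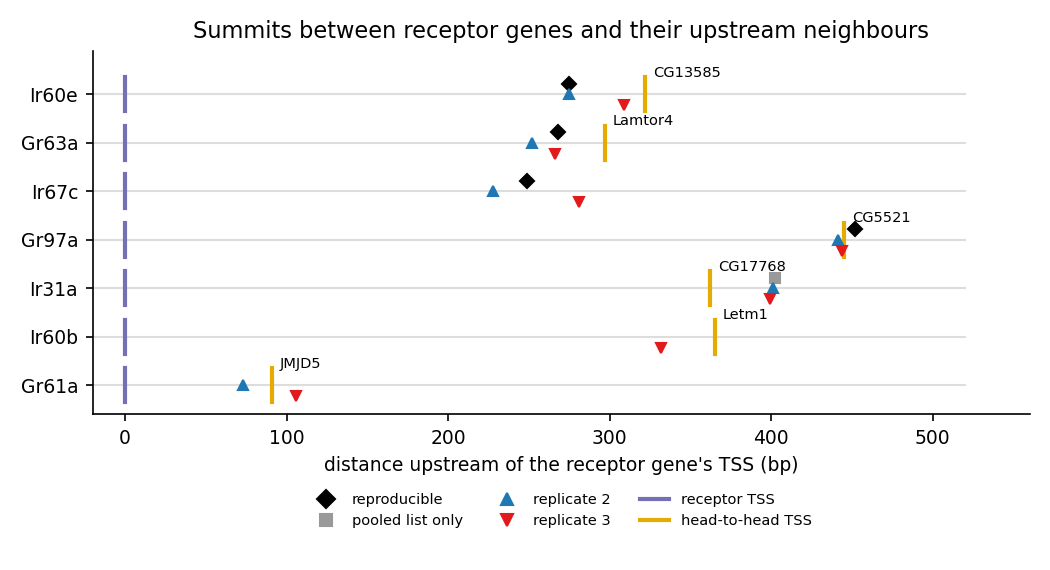
Positions of summits (markers, by peak list) upstream of the TSSs of 7 receptor genes, with the distance from the receptor gene's TSS in bp on the x axis and the TSS of the head-to-head neighbour as a yellow bar. For Ir60e, Gr63a and Gr97a the summits lie nearer to the neighbour's TSS than to the receptor's, while Ir67c has no such neighbour.

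The members nearest to the 500 bp limit were Gr97a at 452 bp inside it and Or88a, an odorant receptor gene known for responses to fly odours, at 636 bp outside it. The Or88a summit (rank 1900) was at the promoter of CG12402. Next came Or9a at 1006 bp, with a peak at the promoter of Neb-cGP (rank 1076), and Ir31a at 1240 bp. With a limit of 1000 bp the receptor genes bound were 5, against 39.0% of all genes, and with 250 bp only Ir67c remained, against 30.3%. Counting any overlap of a peak with the 500 bp window, in place of its summit, left 4 bound, against 36.6%.

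Receptor genes seldom had a divergent neighbour. Of the 179, 16 (8.94%) had a head-to-head neighbour, that is, a gene on the other strand whose TSS lay within 500 bp upstream, compared with 27.6% of other protein-coding genes. Where every annotated transcript starts at the first coding base, 8 of 130 receptor genes and 25 of 361 other genes had one. Among the remaining genes it was 8 of 49 and 3774 of 13405. The part of this annotation in the difference was not tested. In 4 of the 16 the neighbour was itself a receptor gene (Gr58a with Gr58b, and Gr59e with Gr59f), and none of the 4 was bound. The other 12 stood next to a gene of another kind, and 3 of them were bound. Among the 163 receptor genes without such a neighbour 1 was bound, Ir67c (0.613%). Other protein-coding genes were bound in 59.7% of cases with a head-to-head neighbour and in 26.5% without one. Receptor genes were below these shares in both arrangements.

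The neighbours of the 12 receptor genes differed in their own binding. Lamtor4, CG13585, CG5521, CG17768 and p53 were bound. The last 2 were bound at other TSSs, so that Ir31a and Gr94a opposite them were not. JMJD5, which encodes a jumonji-domain protein, and Letm1, which encodes a cation exchanger of the inner mitochondrial membrane, were not in the reproducible calls but had replicate peaks, described below. Spn85F, CG14102, CG34025, Grd and Cyp9h1, opposite Gr85a, Ir76a, Or63a, Ir75c and Or49b, had no summit in reach in any list. When a peak counted only for the gene with the closest TSS, Ir67c was the single receptor gene left, against 27.8% of all genes.

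**Figure D3:**
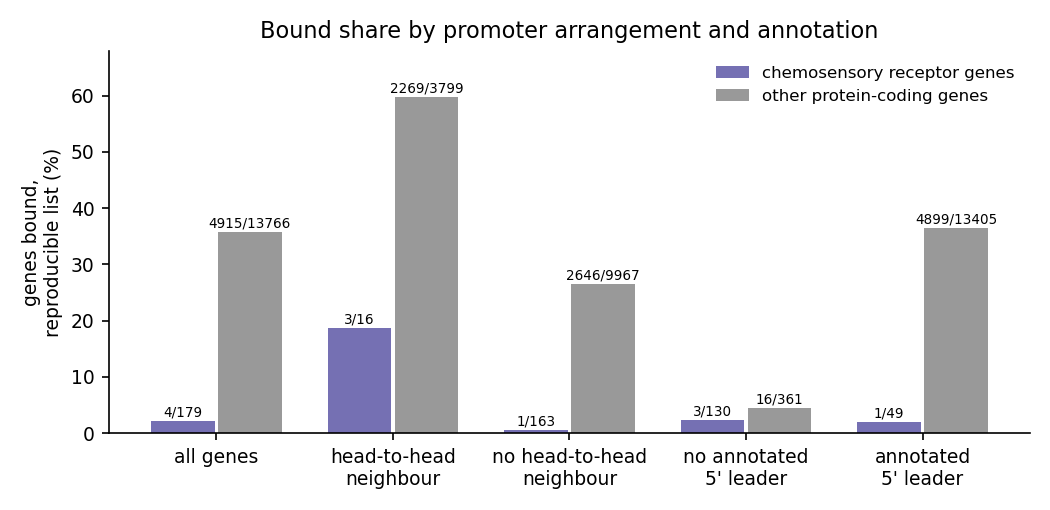
Share of genes bound in the reproducible list (%, y axis) for receptor genes and other protein-coding genes, split by head-to-head neighbour within 500 bp and by whether any transcript has an annotated 5′ leader (x axis); bound and total genes are printed above each bar. Receptor genes stand lower in every class, and closest to the others among genes without an annotated leader (3 of 130 against 16 of 361).

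The annotation of receptor genes differs from that of most genes in a way that touches these distances. For 130 receptor genes (72.6%) every annotated protein-coding transcript starts at the first coding base, with no 5′ leader, compared with 2.62% of other genes. A TSS of this kind may stand for the start of the coding sequence and not for the true start of transcription. Of the 130, 3 were bound (2.31%), and of the 361 other genes annotated in this way 4.43% were bound. Of the 49 receptor genes with a leader 1 was bound, Gr97a (2.04%), compared with 36.5% of the other genes with one. Among genes with neither a leader nor a head-to-head neighbour, 1 of 122 receptor genes (0.820%) and 4 of 336 other genes (1.19%) were bound. The part of the annotation in the low share was not tested. Most receptor genes (167) had a single annotated TSS, and all 4 bound ones were among these.

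Weaker peaks touched a further set of receptor genes. In the pooled list 8 receptor genes had a summit in reach that ranked below the 8963 peaks of the reproducible list. They were Ir31a, Or45b, Gr39b, Or65c, Or82a, Gr22f, Ir40a and Or85f, in order of signal. For 7 of these 8 the receptor's own TSS was the nearest, and for 1 of the 4 genes bound in the reproducible list. Of all protein-coding genes 4919 were bound in the reproducible list, and 3875 when a peak counted only for the gene of the nearest TSS. Counts of 8 and 4 genes are too small to set weak peaks apart from strong ones. The strongest, at Ir31a, an antennal receptor gene, had a signal of 103.2 in the pooled list (rank 11484), 59.1 in replicate 2 (rank 10751) and 41.5 in replicate 3 (rank 15350). Its summit lay 402 bp upstream of Ir31a and 40 bp from the shared start of LSm-4, which encodes an RNA-processing Sm-like protein, and CG17768. It was past that start, inside the bodies of LSm-4 and CG17768. A second pooled summit, of rank 21105, lay 117 bp upstream of Ir31a.

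The others were near the floor of the pooled list, whose lowest signal was 34.5 and whose median was 74.3. Or45b, a larval odorant receptor gene, had a pooled signal of 51.4, and a summit 324 bp inside the gene in replicate 2 (rank 16071) but none in reach in replicate 3. Or82a, an odorant receptor gene known for its response to a fruit ester, had 41.6, again with replicate 2 alone (rank 21306). Ir40a, a receptor gene of humidity-sensing neurons, had 38.2 and no summit in reach in either replicate's list. Gr22f had 39.2, likewise in the pooled list alone. Or65c, at 43.5, had a replicate 3 summit (rank 28120) and no replicate 2 summit in reach, and the same was true of Or85f at 35.6 (rank 23509). Gr39b, at 43.7, was in reach in both replicates (rank 27974 in replicate 2 and 25554 in replicate 3).

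The 3 receptor genes with a summit among the 8963 strongest peaks of replicate 2 had one in replicate 3 too, and of the 5 with such a summit in replicate 3 all but Ir60b had one in the full list of replicate 2. Of the 13 receptor genes with a summit in reach in each replicate, 8 were common (61.5% of each list): Ir60e, Gr63a, Ir67c, Gr97a, Ir31a, Gr61a, Gr39b and Ir21a. For other protein-coding genes the common set was 92.6% of the replicate 2 genes and 85.9% of the replicate 3 genes. These shares were not matched for peak strength. Of the 13 receptor genes, 10 in replicate 2 and 8 in replicate 3 had their strongest summit ranked below 8963. The part of peak strength in the difference was not tested. The median rank of the receptor genes' strongest summits was 21306 in replicate 2 and 15350 in replicate 3. Genes found in replicate 2 alone were Or45b, Or82a, Or65a, Gr93a and Or71a, and in replicate 3 alone Ir60b, Or85f, Or65b, Or65c and Or46a. All Or genes in these lists were therefore seen in a single replicate.

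**Figure D4:**
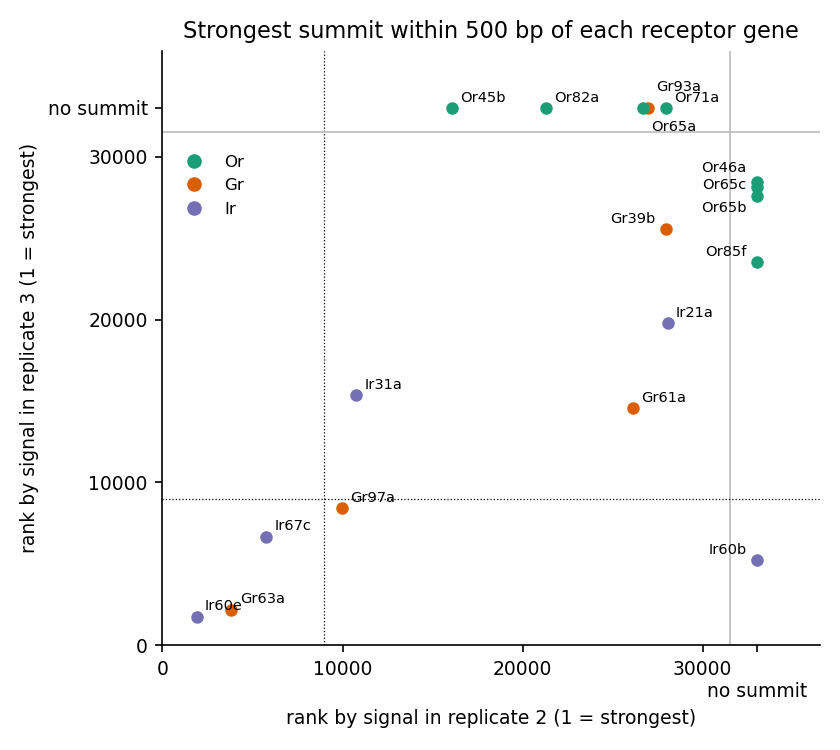
Rank by signal, 1 being the strongest, of the strongest summit within 500 bp of each receptor gene in replicate 2 (x axis) and replicate 3 (y axis), with genes lacking a summit in a replicate in the outer strip; dotted lines mark rank 8963. Ir60e, Gr63a and Ir67c lie inside that rank in both replicates, Gr97a and Ir60b in replicate 3 alone, and every Or gene plotted lies in a strip.

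A few of these sites again lay close to the TSS of a receptor gene's divergent neighbour. At Gr61a, a sugar receptor gene, the interval to JMJD5 printed above is 90 bases. The Gr61a summit ranked 26118 in replicate 2 (signal 22.3, 73 bp upstream) and 14569 in replicate 3 (signal 44.0, 106 bp upstream). In replicate 2 it was 18 bp from the JMJD5 TSS, within the interval. In replicate 3 it was 15 bp from that TSS but past it, in the JMJD5 body and outside the printed interval. Neither gene had a summit in reach in the pooled list. Ir60b, a receptor gene of pharyngeal taste neurons that limits sugar intake, had a replicate 3 summit of rank 5223 (signal 136.5), 33 bp from a Letm1 TSS and 332 bp from its own. Replicate 2 and the pooled list had none there, so that the Ir60b call rests on replicate 3 alone. At Ir21a, a receptor gene of cool-sensing neurons, the strongest summits in reach were at different places, 48 bp upstream in replicate 2 (rank 28059) and 351 bp inside the gene in replicate 3 (rank 19776). Or65a, one of a tandem group with Or65b and Or65c, had a replicate 2 summit of rank 26692 and Or65b a replicate 3 summit of rank 27605. These 2 lists therefore named different genes of the group.

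Receptors grouped by what they detect were mostly far from any reproducible site. With 2.23% of all receptor genes bound, 0 in groups this small does not set a group apart from other receptor genes. The 4 Ir co-receptor genes Ir8a, Ir25a, Ir76b and Ir93a, which serve many Ir complexes, had no summit in reach in any list. Their nearest reproducible summits were 10.7, 2.57, 14.1 and 9.40 kb away, and that of Ir25a belonged to the shared promoter peak of tank and CG12194 (rank 88). Of 13 antennal Ir genes 0 were bound, with a median distance of 13.2 kb. Ir21a and Ir31a (15.4%) had a summit in reach in the full lists of both replicates, beside 4.47% of all receptor genes. The 9 sugar receptor genes were not bound either, and Gr61a (11.1%) was in reach in both full lists. Of the 9, the closest to a reproducible summit was Gr5a, the trehalose receptor gene, at 1482 bp, followed by Gr61a at 3692 bp. Gr43a, the fructose receptor gene, was at 14.7 kb. The tandem group Gr64a to Gr64f lay at 9.81 to 18.8 kb from the same peak. Gr64b and Gr64c share their first annotated TSS and are not separate observations.

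Bitter receptor genes with broad expression showed 1432 bp for Gr89a, 7155 bp for Gr66a, 7188 bp for Gr32a, 13.8 kb for Gr39a and 34.4 kb for Gr33a. None of these 5 had a summit in reach in any list. The pheromone and fly-odour receptor genes followed with 636 bp for Or88a, 1428 bp for Or67d, the receptor gene for a male pheromone, 8368 bp for Or65a and 17.8 kb for Or47b. Of the 25 Or genes known to be used in the larva, the stage after the embryos sampled, 0 were bound. The share over all receptor genes was 2.23%, and the median distance of the 25 was 23.9 kb. The nearest of them was at 4822 bp, and the farthest, Or35a, was at 120.2 kb, the longest distance of any receptor gene.

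Over all 179 receptor genes the median distance from a TSS to the nearest reproducible summit was 12.9 kb (quartiles 6.13 and 27.4 kb), compared with 3.06 kb for all protein-coding genes (quartiles 0.136 and 11.3 kb). The medians were 15.1 kb for Or genes, 11.6 kb for Gr genes and 12.5 kb for Ir genes, and the quartiles of the 3 families overlapped. The 175 unbound receptor genes had a median distance of 13.2 kb and the 8851 other unbound genes 7.76 kb. More than 10 kb from any reproducible summit were 62.3% of the unbound receptor genes and 42.0% of the other unbound genes. The nearest summit of an unbound receptor gene was at the promoter of another gene in 88 of 175 cases (50.3%), and the share for the other unbound genes was 58.4%.

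**Figure D5:**
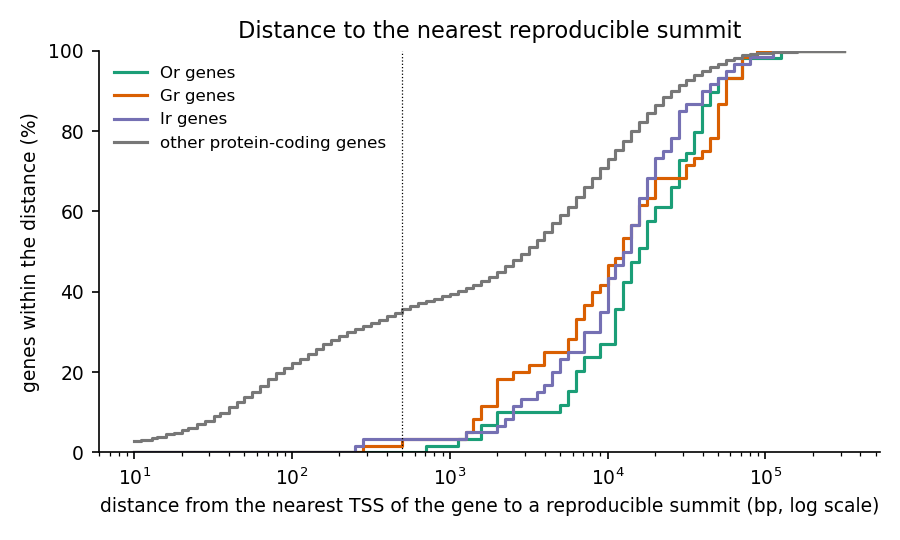
Share of genes (%, y axis) whose nearest TSS lies within a given distance in bp (x axis, log scale) of a reproducible summit, for each receptor family and for other protein-coding genes; the dotted line marks 500 bp. Receptor families rise mainly beyond 1000 bp, and their medians lie between 11.6 and 15.1 kb.

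Reproducible summits lay inside the bodies of 2 of the 179 receptor genes (1.12%), compared with 18.1% of all protein-coding genes. Receptor genes are shorter, with a median length of 1691 bp against 2183.5 bp for other genes, and the part of length in this difference was not tested. Ir41a, an antennal amine receptor gene annotated over 104.4 kb, held 2, of rank 1614 (96307 bp from its TSS) and rank 7487 (6838 bp from it). Both had counterparts in replicate 2 (ranks 1478 and 5378) and in replicate 3 (ranks 1835 and 12050). Ir31a, only 2.63 kb long, held 2 as well, of rank 5066 and 7123, at 1240 and 1932 bp from its TSS. These were in replicate 2 at rank 5572 and 7075 and in replicate 3 at rank 4777 and 5448. The Ir31a body was thus marked in both replicates although its promoter was not called. Gr39b had a weaker pooled summit inside the gene, 783 bp from its TSS (rank 11768), which was at 785 bp in replicate 2 (rank 15133) and at 758 bp in replicate 3 (rank 10578).

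Another 24 receptor genes lie inside a longer protein-coding gene. None of the 24 was bound, beside 2.23% of all receptor genes. The host gene was bound in 10 cases (41.7%), beside the 35.3% of all protein-coding genes, among them Plp around Or71a, Mondo around Gr39a and p53 around Gr94a. The 24 cases are not 24 separate hosts, because SLO2, CG43795 and Nha2, none of them bound, each hold more than 1 receptor gene. Of the 79 receptor genes within 5000 bp of another receptor gene 1 was bound, and of the 100 more isolated ones 3. With 2.23% of all receptor genes bound, counts this small do not set nested, grouped or isolated genes apart. Gr10a and Or10a are annotated over the same span with 1 shared TSS, so their distance of 1961 bp to the nearest summit is a single observation.

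The starts of receptor genes were also searched for the 6 motifs, in the 250 bases before and 50 bases after the most upstream TSS on both strands. A match is a description of the letters there and does not show binding. For the 72.6% of receptor genes annotated without a leader the window is placed at the first coding base, and it may not hold the promoter, while this applies to 2.62% of other genes. TATCGATA was in 1 of 179 receptor windows, that of Gr68a (0.559%), and in 9.36% of all windows. GGTCACACT was in 0 receptor windows and in 6.05% of all windows, and its copy at Gr63a fell outside this window because it lies at the Lamtor4 TSS. CGATA was in 33.5% of receptor windows and 47.4% of all windows. CAGCTG was in 9.50% and 17.7%, and GAGAG in 20.1% and 29.7%. TATAAA was in 54.2% of receptor windows and 45.8% of all windows. How far the placing of the window bears on these shares was not tested. The GC content had a median of 39.3% in receptor windows and 38.0% in all windows. Within 50 bp of the 4 summits at receptor genes there was CGATA at Ir60e and GGTCACACT at Gr63a. At all reproducible summits their shares were 23.3% and 2.54%.

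Other genes of the chemosensory system were looked at in the same way, beside the 35.3% of all protein-coding genes bound in the reproducible list. Orco, the co-receptor of all Or proteins, and Snmp1 and Snmp2, membrane proteins of pheromone detection, had no summit in reach in any list. Odorant-binding protein genes, whose products carry odorants in the sensillum fluid, were bound in 4 of 52 cases (7.69%). Obp99b had the strongest peak, of rank 827 with the summit 245 bp from its own TSS, and Obp83g had rank 6922 at 255 bp. At Obp93a and Obp47b the summit was 14 bp from the Ice2 TSS and 32 bp from the CG7741 TSS, respectively. Obp47b had no summit in reach in the full list of replicate 3. CheA and CheB genes, which encode small secreted proteins of taste organs, were bound in 2 of 20 cases (CheB42c and CheB93a). The CheB42c summit was 41 bp from its TSS and also 41 bp from a TSS of mim. The CheB93a summit was 493 bp from its TSS, just inside the limit. Pickpocket channel genes were bound in 0 of 29 cases. In the pooled list 3 of the 29 (10.3%) had a summit in reach, beside 47.1% of all genes. Among 10 genes for transcription factors of chemosensory neurons, onecut (rank 2754, 40 bp) and Xbp1 (rank 3391, 167 bp) were bound, while acj6, pdm3, lz, amos, ato, sim, Fer1 and Eip93F were not. Of these 8, pdm3 had a summit in reach in the pooled list and in both replicates' lists, and among the 8963 strongest peaks in replicate 3 but not in replicate 2. Cuticle protein genes, another large set of genes, were bound in 3 of 122 cases (2.46%) at a median distance of 13.3 kb, compared with 2.23% and 12.9 kb for the receptor genes.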

How the data were processed

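Peak lists from chromatin immunoprecipitation of CG1603-GFP in embryos were used, on dm6 per the labels. Per the labels, chromatin was sonicated to 200 to 800 bp, and the antibody field names CG1603 while the description names GFP. Per the deposited description files, peak calling by the authors covered the replicates singly and pooled, against a control, and they derived the reproducible list from these. No aligner or peak caller is named in the labels or headers. Each deposited peak has a signal, of unstated scale, used here only to rank peaks within a list, and a −log10 q value, not used because 71.4% of reproducible peaks share its highest value. Replicate and pooled lists hold exactly 30000 lines. Depth is unknown, and the control was not analysed here.

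Gene models and TSSs were those of Ensembl release 115 (BDGP 6.54); sequence was read from RefSeq's release 6 assembly. The 23 protein-coding genes on Y were left out. Shares were set beside those of all genes. No test was run, since the series has 1 group of 2 samples and genes are not replicates, and single values carry no SD. Receptor genes, role lists and motifs were chosen with earlier results of these data known. Named genes were those bound, their neighbours within 2000 bp, the strongest pooled and single-replicate summits, those nearest the 500 bp limit and small role groups. Alternatives changed the distance, the list, the replicates, the TSSs and the assignment of peaks. Binding calls were tested on simulated peaks. Calculations used Python 3.11.15, NumPy 2.4.6 and pandas 2.3.3.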

Additional observations from a re-analysis of the deposited data

How the results depend on the processing

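The 4 bound receptor genes became 1 at 250 bp, 12 with the pooled list, 2 with the 4481 strongest reproducible peaks and 1 with the nearest TSS only, and 3 to 5 with one replicate left out, and the count stayed within 1.5 times with a limit of 1000 bp, the most upstream TSS or peak overlap. For Or genes 0 became 1 at 1000 bp and 4 with the pooled list, and stayed 0 with either replicate left out. For Gr genes 2 became 0 at 250 bp and with the nearest TSS only, 4 with the pooled list and 1 with the 4481 strongest peaks, and was 1 to 2 with one replicate left out (1 without replicate 3, where Gr97a dropped out). For Ir genes 2 became 1 at 250 bp, with the 4481 strongest peaks and with the nearest TSS only, and 4 with the pooled list, and was 2 to 3 with one replicate left out. Odorant-binding protein genes went from 4 to 1 at 250 bp and with the 4481 strongest peaks, 8 with the pooled list and 2 with the nearest TSS only, and were 2 to 4 with one replicate left out (2 without replicate 2, where Obp47b and Obp83g dropped out). The share of all genes bound in these settings ran from 23.0% to 47.1%. The median distance of 12.9 kb became 8.38 kb with the pooled list and 16.9 kb with the 4481 strongest peaks, and was 11.2 to 12.8 kb with one replicate left out. It has no value under settings that change only the limit or the assignment of peaks. Longer and shorter lists change counts by their construction, and the cause of the other shifts was not tested. Of the 9 settings, Ir67c stayed bound in 8, Gr63a and Ir60e in 7 each and Gr97a in 5. Several settings could not remove any of these 4 genes, so the tallies overstate how stable the calls are. They are the 1000 bp limit, peak overlap, the pooled list, which holds the same 4 summits, and the most upstream TSS, since each gene has 1 TSS. No paired analysis was possible because there is 1 group. Weak summits in 1 replicate lie near the end of lists cut at 30000 peaks, and with depth unknown their absence from the other replicate is not shown to be a lack of binding.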
